A study of Mus musculus with 5 samples.

Results

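The genes described here are 10 genes of intestinal lipid absorption, listed by name, with no threshold on a measured value, although earlier results of these data were known when the list was made: Apoa1, Apoa4, Apob, Apoc3, Mttp, Dgat1, Cd36, Fabp1, Fabp2 and Fabp5. All 10 were found among the 22042 genes of a table of 12 sorted libraries and among the 27998 genes of a droplet matrix of single cells. The question put to them was where they were expressed among enteroendocrine cells (EECs), the hormone cells of the gut epithelium, and how much enterocyte RNA the libraries of sorted CCK cells held.

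The study profiled mouse small intestine epithelium on a C57Bl/6J background. The sorted libraries came from young adult Cck-Cre; R26-LSL-tdTomato mice, in which Cre made where Cck is or was active switches on the red protein tdTomato in that cell and its descendants, so a labelled cell need not make CCK at the time of sorting. From each of 6 mice a tdTomato+ library (CCK+) and a tdTomato- library (CCK-) were made; 3 mice (A, B and F) had been fasted overnight and 3 (C, D and E) had been given Ensure, a liquid nutrient drink, after a fast, which gives 4 groups of 3 libraries. CCK- libraries hold all unlabelled epithelial cells, so their content is a mixture. The droplet library was 1 pool of untreated Neurog3-Cre; R26-LSL-tdTomato mice, in which the descendants of cells that once expressed the endocrine progenitor factor Neurog3 are labelled. It has no replicate.

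Dietary triglyceride is split in the gut lumen and the fatty acids enter enterocytes, the absorptive cells, partly with the help of the scavenger receptor CD36. Small cytosolic fatty acid binding proteins (FABPs) carry them to the endoplasmic reticulum, where DGAT1 makes the last step of triglyceride synthesis. The microsomal triglyceride transfer protein, encoded by Mttp, then loads the lipid onto apolipoprotein B, the structural protein of the chylomicron, and apolipoproteins A-I, A-IV and C-III join the particle that leaves the cell for the lymph. Fabp1 and Fabp2 are the liver and intestinal types of FABP and are abundant in enterocytes, whereas Fabp5 is the type found in many other cells, including skin, fat and immune cells.

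Apoa1, Apoc3 and Apoa4 are neighbours on chromosome 9 (GRCm38, GENCODE positions 46228580 to 46243459, a span of 14.88 kb), with Apoc3 on the minus strand between the others. Fabp1 lies on chromosome 6 (71199827 to 71205023, plus strand). Of the 10 genes, 7 had a promoter window in the RefSeq table of GRCm38.p6. Bases upstream of the annotated starts are shown for the neighbours Apoa1 and Apoa4 and for Fabp1, which the study counts among its enterocyte markers. Capitals mark the matches to the letters searched for in the 250 bases before the RefSeq start.
Apoa1, chr9:46228380-46228579, plus strand: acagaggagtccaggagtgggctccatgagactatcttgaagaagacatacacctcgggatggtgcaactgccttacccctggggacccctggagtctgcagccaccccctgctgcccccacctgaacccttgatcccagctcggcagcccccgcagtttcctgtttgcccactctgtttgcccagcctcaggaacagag
Apoa4, chr9:46240594-46240695, plus strand: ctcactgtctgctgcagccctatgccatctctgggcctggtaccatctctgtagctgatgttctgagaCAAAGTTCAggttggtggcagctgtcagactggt
Fabp1, chr6:71199629-71199826, plus strand: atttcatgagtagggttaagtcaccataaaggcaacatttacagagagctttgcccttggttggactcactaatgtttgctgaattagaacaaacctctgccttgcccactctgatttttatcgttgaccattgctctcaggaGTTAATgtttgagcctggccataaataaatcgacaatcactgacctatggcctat
The match in Apoa4, CAAAGTTCA, resembles the sites bound by HNF4, a nuclear receptor of the absorptive epithelium, and lay 182 bases before the RefSeq start. The RefSeq start (46240844) lies within the GENCODE gene, downstream of the GENCODE start at which the printed stretch ends. On either strand these letters occurred in 0.335% of all 32851 promoter windows and in no other of the 7 windows. The match in Fabp1, GTTAAT, is an arm of the palindrome bound by HNF1 and occurred in 6.43% of windows. CAAAGTCCA (0.384% of windows), CAAAGGTCA (0.426%) and AGATAA (9.99%) were in none of the 7 windows, and TATAAA (12.4%) was in those of Fabp1 and Apob, at 30 and 60 bases before the RefSeq start. In Fabp1 the RefSeq start (71199879) lies within the GENCODE gene. Its TATAAA therefore falls after the GENCODE start (71199827) and outside the printed stretch. In Apob the GENCODE start (7977648) lies upstream of the RefSeq start, so TATAAA is nearer to the GENCODE start. These matches are letters only, and binding was not measured.

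The sort separated the classes: Cck was between 14837 and 32592 normalized counts in the 6 CCK+ libraries and between 27.6 and 86.0 in the 6 CCK- libraries. Across the 15 enterocyte markers examined, however, the CCK+ libraries were not empty. Their summed level was 119172 to 340412 normalized counts in CCK+ and 370081 to 547316 in CCK- libraries, and no enterocyte marker was at 0 in any library. The 9 immune markers were also higher in CCK+, with a summed level of 4774 to 8677 against 400 to 984, and all 9 passed the test. The CCK+ library of mouse B stood apart, with the highest enterocyte sum and the lowest sum of the 13 enteroendocrine markers among the CCK+ libraries (85327 against 139867 to 276730 in the others). In these bulk libraries, fewer cells of a type and less RNA per cell cannot be told apart.

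In CCK+ against CCK- libraries, 6 of the 10 genes were lower, 1 was higher and 3 did not pass the test. The lower genes were Fabp2, Cd36, Fabp1, Mttp, Dgat1 and Apob, and the higher gene was Fabp5. Of all 22042 genes tested, 14.1% were called lower and 19.6% higher (limma with a mean-variance trend, adjusted p under 0.05). The median log2 change was -0.76 for the 10 genes and 0.09 for all genes. The range of the 10 genes was wide, from -1.67 for Fabp2 to 6.98 for Fabp5.

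**Figure D1:**
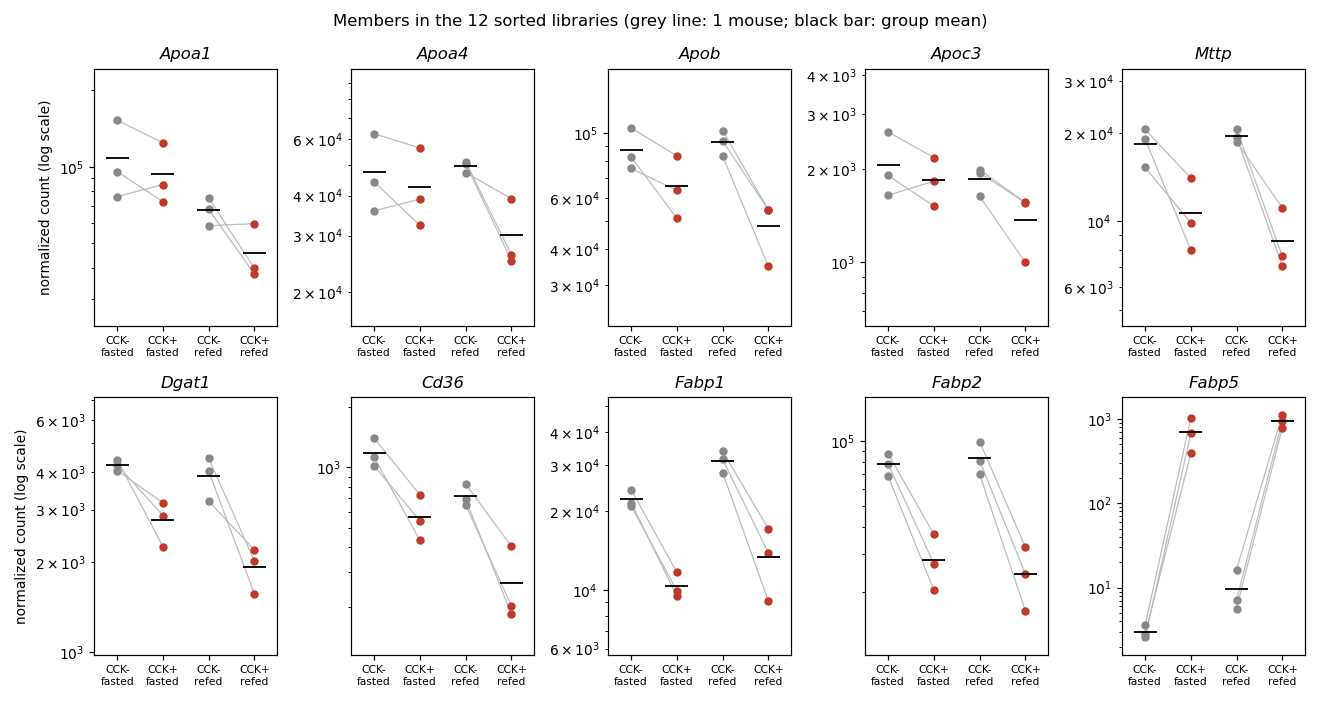
Normalized count of each of the 10 genes on a log scale in the 4 groups of sorted libraries, with 1 point per library (red CCK+, grey CCK-), a grey line joining the 2 libraries of a mouse and a black bar at the group mean. Fabp5 is the only gene whose CCK+ points all lie above the CCK- points, at 392 to 1125 against 2.56 to 16.4, while Mttp, Dgat1, Fabp1 and Fabp2 lie wholly below.

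The intracellular carriers showed both extremes. Fabp2, the intestinal type, was at 20352, 36890 and 26933 normalized counts in the fasted CCK+ libraries of mice A, B and F and at 32178, 24218 and 16329 in the refed ones of C, D and E. The CCK- libraries held 68640, 87146 and 78223 in the fasted and 99202, 80995 and 69979 in the refed mice, so that the classes did not overlap. The change was -1.67 ± 0.21 (log2, SE, adjusted p = 2.34e-05). Fabp1, the liver type, was at 9478, 11698 and 9959 in fasted CCK+, 17128, 13885 and 9101 in refed CCK+, 21549, 24125 and 20905 in fasted CCK- and 33805, 31453 and 28039 in refed CCK- libraries. It fell by 1.18 ± 0.16 on the log2 scale in CCK+ (adjusted p = 4.14e-05), again without overlap.

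Fabp5 went the other way and by far more. It was at 1025, 392 and 675 normalized counts in the fasted CCK+ libraries of A, B and F and at 953, 1125 and 789 in the refed ones of C, D and E. In CCK- libraries it was close to 0, at 3.57, 2.79 and 2.56 in fasted and 7.14, 16.4 and 5.66 in refed mice. The difference was 6.98 ± 0.28 on the log2(value + 1) scale (adjusted p = 3.12e-10), or 126-fold on that scale, which understates changes of low values. The lowest of the CCK+ values was that of mouse B, the library with the lowest enteroendocrine sum. Gip, the hormone of K cells, was between 10775 and 34279 in CCK+ and between 33.3 and 78.0 in CCK- libraries, and it too was lowest in the CCK+ library of mouse B. The part of the immune markers in the Fabp5 difference was not tested in the sorted libraries.

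Among the genes of lipid entry and triglyceride synthesis, Cd36 was at 432, 730.1 and 541 in fasted CCK+, 404, 204 and 185 in refed CCK+, 1124, 1397 and 1019 in fasted CCK- and 827, 649.6 and 693 in refed CCK- libraries. Every mouse had less Cd36 in its CCK+ than in its CCK- library, at 26.8% to 53.1%, although the CCK+ library of mouse B exceeded some CCK- libraries of refed mice. The change was -1.30 ± 0.19 (log2, SE, adjusted p = 8.88e-05). Cd36 is also made by endothelial cells, adipocytes and macrophages; of the 5 endothelial and adipocyte markers in the table, Cdh5 was higher in CCK+ (adjusted p = 0.0488), at no more than 3.44 normalized counts, and the other 4 did not pass the test. Dgat1 was at 1564 to 3161 in CCK+ and 3197 to 4457 in CCK- libraries and fell by 0.82 ± 0.13 (log2, adjusted p = 0.000146).

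Of the genes that build the particle, Mttp was at 7991, 14051 and 9895 in fasted and 11126, 7615 and 7073 in refed CCK+ libraries. In CCK- libraries it was at 19076, 20554 and 15267 in fasted and 18693, 20681 and 19363 in refed mice, with no overlap between the classes (-1.01 ± 0.16, log2, SE, adjusted p = 0.000229). Apob was at 50958, 83528 and 63553 in fasted CCK+, 54527, 34830 and 54544 in refed CCK+, 82838, 104212 and 75665 in fasted CCK- and 94087, 83524 and 102116 in refed CCK- libraries. Its difference of -0.70 ± 0.20 (log2, SE, adjusted p = 0.0136) was called, but not when libraries were rescaled to the same total (-0.31, adjusted p = 0.135), after quantile normalization (-0.13, adjusted p = 0.474) or in the fasted mice alone (-0.42, adjusted p = 0.361). In all, 4 of the 10 genes had all 6 CCK+ values below all 6 CCK- values, which held for 5.93% of all genes.

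The apolipoproteins of the chromosome 9 cluster differed least. Apoa1, the main protein of high density lipoprotein, was at 72771, 124202 and 85067 in fasted CCK+, 59625, 37704 and 39777 in refed CCK+, 95702, 152562 and 76266 in fasted CCK- and 58542, 67985 and 75340 in refed CCK- libraries. The classes overlapped widely and the difference of -0.38 ± 0.23 (log2, SE) did not pass the test (adjusted p = 0.232), nor did those of Apoa4 (-0.45 ± 0.20, adjusted p = 0.0979) and Apoc3 (-0.31 ± 0.15, adjusted p = 0.145). Their 95% intervals ran from -0.87 to 0.11, from -0.88 to -0.03 and from -0.63 to 0.02. Apoa4 ranged from 25063 to 56424 in CCK+ and from 35869 to 62422 in CCK-, and Apoc3 from 1001 to 2177 and from 1635 to 2631. With the mouse as a replicate block, which uses the pairing of the 2 libraries of a mouse, Apoa4 (adjusted p = 0.0330) and Apoc3 (adjusted p = 0.0391) were called lower, and 9 of the 10 genes were called. That fit called 7671 of all 22042 genes, against 7431 without the block. Without the CCK+ library of mouse B, Apoa4 was also called lower (-0.56, adjusted p = 0.0403). After quantile normalization all 3 genes changed sign without passing the test, as did Apoa1 and Apoc3 after rescaling to the same total.

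The level of each gene in CCK+ libraries was next set against the level that enterocyte RNA had in the same library. For each mouse the CCK+ value was divided by the CCK- value. The median of the 15 enterocyte markers was 48.3%, 72.3% and 63.3% in the fasted mice A, B and F and 57.2%, 38.3% and 32.3% in the refed mice C, D and E. The refed mice C, D and E thus had the lower values except that C lay above A. Among 9 of the 10 genes, Fabp5 left out, the median over mice ran from 31.2% for Fabp2 to 79.8% for Apoc3, within the span of the single markers, which ran from 23.6% for Reg1 to 85.9% for Ada.

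**Figure D2:**
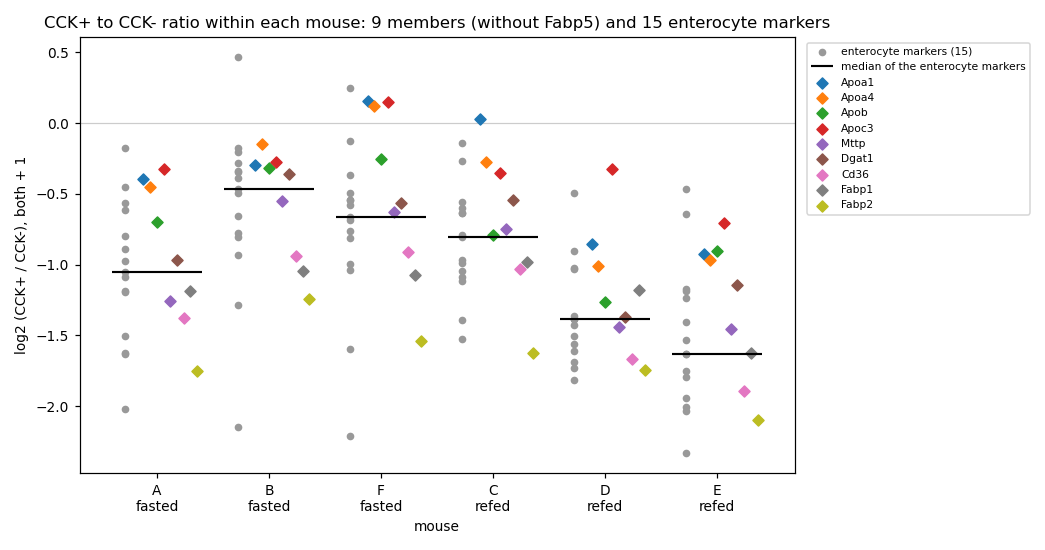
Log2 ratio of the CCK+ to the CCK- library of each mouse for the 15 enterocyte markers (grey points, black line at their median) and 9 of the 10 genes (coloured diamonds). Apoa1, Apoa4, Apob, Apoc3 and Dgat1 lie above the marker median in 6 of 6 mice, Cd36 and Fabp2 below it in 6 of 6.

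Relative to that marker median, 5 genes were higher and 1 was lower. The background of this comparison was lopsided, since most genes are not enterocyte genes: 68.0% of all genes were called higher and 0.758% lower, with a median of 1.09 (log2). Even among the 15 markers themselves, 4 were called higher and 4 lower than their own median. The 10 genes had a median of 0.24. Apoc3 (0.69 ± 0.14, log2, SE, adjusted p = 0.000472), Apoa1 (0.62 ± 0.12, adjusted p = 0.000488) and Apoa4 (0.55 ± 0.12, adjusted p = 0.000805) lay above the markers in 6 of 6 mice, as did Apob by a smaller amount (0.30 ± 0.13, adjusted p = 0.0468). The Apob call was lost when any of mice A, B, D, E or F was left out (0.19 to 0.34, adjusted p between 0.0525 and 0.177). Mttp was level with the markers (-0.01 ± 0.11, 95% interval -0.25 to 0.22, adjusted p = 0.922), and Dgat1, Cd36 and Fabp1 did not pass the test either. The last 3 depended on the markers: against Alpi, Reg1 and Rbp2 alone, Cd36 (-0.41, adjusted p = 0.0108) and Fabp1 (-0.29, adjusted p = 0.0261) were called lower and Apob lost its call (0.19, adjusted p = 0.0913), and against the 10 markers low in Cck-high droplet cells Dgat1 was called higher (0.27, adjusted p = 0.0328). The 5 enterochromaffin markers were also higher in the CCK+ libraries, with a summed level of 7220 to 27249 against 1109 to 1687 normalized counts, and Tph1 alone at 4994 to 21358 against 100.2 to 222.5. In droplets, Tph1-high cells held Apoc3 at 95.7%, Apob at 31.5% and Apoa1 at 23.9% of the enterocyte-marker level. The part of enterochromaffin RNA in the values of these apolipoproteins was not tested. Fabp2 was lower (-0.67 ± 0.12, adjusted p = 0.000147) and Fabp5 was higher by 7.98 ± 0.29 (adjusted p = 8.82e-12).

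The droplet library gave the levels in single cells, as unique molecular identifiers (UMIs, counted molecules) per 10000. Of 9451 cells with over 1000 genes and under 10% mitochondrial UMIs, 853 met only the Cck criterion (500 or more Cck UMIs per 10000, Cck-high), 2015 only that of Tph1 (10 or more, Tph1-high), the enzyme of serotonin synthesis that marks enterochromaffin cells, 3884 only that of Zg16 (500 or more, Zg16-high), a goblet cell gene, and 489 only that of enterocytes (Alpi, Reg1 and Rbp2 together 50 or more, enterocyte-marker). A further 1249 cells met none of the 4 criteria. They were split into Gip-high (500 or more), Ghrl-high (ghrelin, 1000 or more) and Sst-high (500 or more) cells and 1007 other cells. Another 961 cells met several criteria and were set aside. Some can be doublets, for which no caller was run, but the study also describes cells that express Cck and Tph1 together, and 256 of the 961 met these 2 criteria alone. Median depth was 6118, 3013, 6818 and 9343 UMIs per cell in the 4 groups. Cells are not replicates, so the values below carry counting error only and no test.

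Enterocyte-marker cells held the most of 9 of the 10 genes among these 4 groups. In them Fabp1 was at 180.7 UMIs per 10000 (exact Poisson 95% interval 179.5 to 182.0), Fabp2 at 77.7, Apoa1 at 63.4, Apoa4 at 23.6, Mttp at 10.7, Apoc3 at 6.74, Apob at 5.69, Dgat1 at 5.50 and Cd36 at 0.231. Cck-high cells held far less. They were at 3.63 for Fabp1, 4.97 for Fabp2, 2.46 for Apoa1, 1.02 for Apoa4, 0.375 for Mttp, 0.607 for Apoc3, 0.724 for Apob, 0.313 for Dgat1 and 0.0509 for Cd36. Except for Apob (12.7%) and Cd36 (22.0%), these 9 genes were at 9.01% or less of their level in enterocyte-marker cells. Outside the 4 groups, the 1007 other cells that met no criterion held Fabp1 at 20.6 UMIs per 10000. Single cells among them reached 759.6, against 543.5 in enterocyte-marker cells. The 256 cells that met the Cck and Tph1 criteria, a group added after the values had been seen, held more Apoa1 (5.49, 5.14 to 5.86), Apoc3 (1.73, 1.54 to 1.94) and Apob (1.02, 0.870 to 1.18) than the Cck-high cells, and Mttp was at 0.309 (0.231 to 0.405).

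These low levels have to be read against free RNA, which enters every droplet. Among barcodes with 1 to 100 UMIs, taken as free RNA, Fabp1 was at 16.9 and Apoa1 at 13.1 UMIs per 10000, and 8 of the 10 genes were lower in Cck-high cells than there. The exceptions were Fabp5 (3.92 against 1.39) and Cd36, whose intervals overlapped. Cd36 was at 0.0509 (0.0335 to 0.0740) in Cck-high cells and at 0.03985 (0.0172 to 0.0785), on 8 UMIs, in free RNA. Free RNA is only a part of a cell's UMIs, so a level below it does not tell whether the cells make a gene. In Cck-high cells the 15 enterocyte markers ran from 10.0% to 444% of their free RNA level (median 28.7%). The 10 genes ran from 18.7% to 282% (median 36.3%). In Zg16-high cells, the goblet-type cells, Apoa1 was at 3.04 and Fabp1 at 4.71. Whether these cells make any of the 10 genes was not tested. Apoa1 was seen in 67.6% of Cck-high and 76.9% of Zg16-high cells, and after thinning every cell to 2000 UMIs in 34.9% (exact binomial 95% interval 31.7 to 38.2) and 41.8% (40.3 to 43.4). For Apoa1 and Apoa4 the Cck-high share was at or below the Zg16-high share at both depths. Among cells that met no criterion, Apoa1 was at 1.86 UMIs per 10000 in the other cells and 1.76 in Ghrl-high cells. It was at 2.69 in Gip-high and 3.12 in Sst-high cells, against 2.46 in Cck-high cells. Apoa4 was at 0.654, 0.808, 0.903 and 1.14 in these groups in the same order, against 1.02. Whether the Cck-high level of these 2 genes is background was not tested. Fabp2 and Dgat1 were higher in Zg16-high cells than the other genes were relative to free RNA (85.2% and 44.3%, against 23.1% for Apoa1 and 21.4% for Apoa4), so those cells give no background level for them. In Cck-high cells Fabp2 was at 34.7% and Dgat1 at 19.0% of free RNA, against 18.7% for Apoa1. The number of Apoa1 UMIs per Apoa4 UMI was 2.41 in Cck-high cells, 2.68 in enterocyte-marker cells and 2.44 in free RNA, whereas that of Fabp2 per Fabp1 was 1.37, 0.43 and 0.85. Apob and Apoc3 were above the Zg16-high level in Cck-high cells: after thinning, Apob was in 13.8% (11.6 to 16.3) against 5.36% of cells and Apoc3 in 10.3% (8.36 to 12.6) against 6.51%, and Mttp in 8.21% against 3.63%. Cd36 was in 1.17% (0.564 to 2.15) against 0.232%, and Fabp1 in 39.0% against 36.8% after thinning but in 68.9% against 71.7% before.

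**Figure D3:**
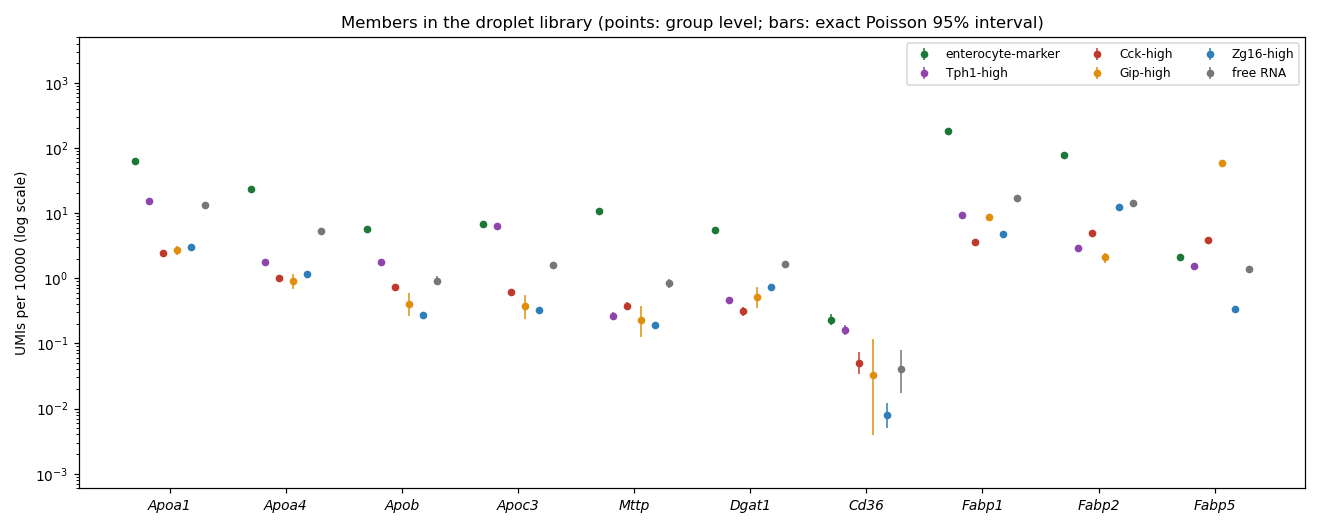
UMIs per 10000 of the 10 genes on a log scale in 5 groups of cells and in free RNA of the droplet library, with exact Poisson 95% intervals of counting error. Green points (enterocyte-marker cells) are highest for 9 genes, and for Fabp5 the Gip-high cells are highest at 58.1.

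The same comparison put numbers on the enterocyte markers in the sorted libraries. Of the 15 markers, 10 were at under 10% of their enterocyte-marker level in Cck-high droplet cells, among them Alpi (2.12%), Reg1 (0.945%) and Rbp2 (1.98%). These 3 formed the rule that chose the enterocyte-marker cells. The same rule kept cells that met it out of the Cck-high group, so the low values of these 3 were set in part by the grouping. The other 5 of the 15 markers were not low: Sis, the sucrase-isomaltase gene, was at 71.6% and Xpnpep2 at 198%. In the sorted CCK+ libraries the median of the 10 low markers was 45.5%, 67.1%, 61.1%, 50.8%, 35.6% and 30.9% of the CCK- library in mice A, B, F, C, D and E. Mttp was at 3.51% of the enterocyte-marker level in Cck-high droplet cells and at 36.5% to 68.4% of the CCK- level in sorted CCK+ libraries. For Fabp1 the same 2 values were 2.01% and 32.5% to 50.7%, and for Apoa1 3.88% and 52.8% to 111.5%. The denominators differ, since CCK- libraries are mixtures and enterocyte-marker cells were selected. The numerators differ as well. Sorted CCK+ libraries hold all labelled cells, with Gip at 10775 to 34279 normalized counts. The Cck-high group leaves out Gip-high cells below the Cck limit and 393 cells that met the Cck and another criterion. The values are therefore set side by side, and their ratio is not an estimate of a cell share.

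**Figure D4:**
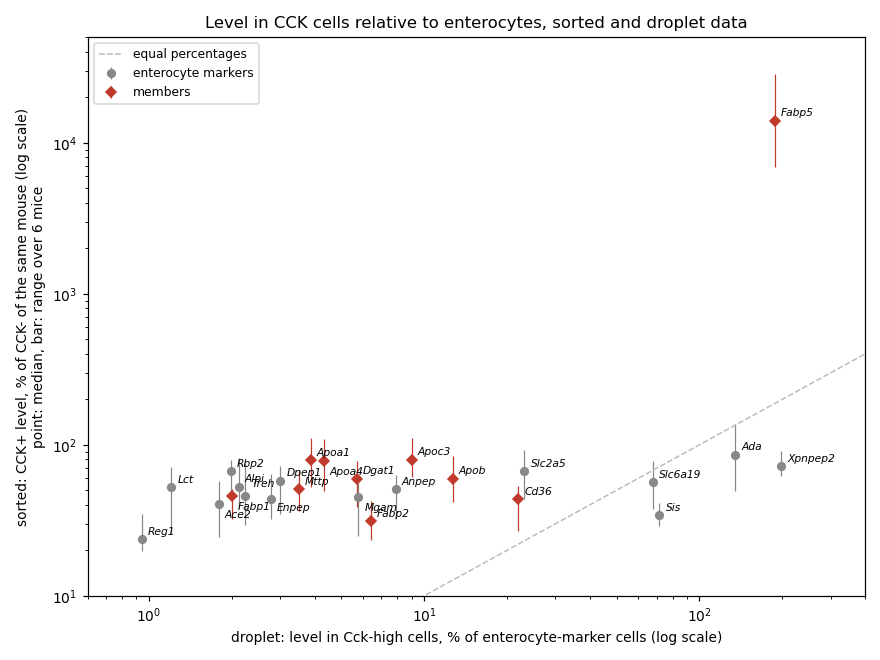
For each of the 10 genes (red) and 15 enterocyte markers (grey), the level in sorted CCK+ as a percentage of the CCK- library of the same mouse (median and range over 6 mice, log scale) against the level in Cck-high droplet cells as a percentage of enterocyte-marker cells (log scale). Genes at under 10% in droplets lie at 23.6% to 79.8% in the sorted libraries, and Fabp5 is high on both axes.

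Fabp5 was the exception in single cells as well. Cck-high cells held 3.92 UMIs per 10000 (3.75 to 4.09) and it was seen in 65.8% of them, against 27.7% of Tph1-high and 12.7% of Zg16-high cells. After thinning to 2000 UMIs the shares were 36.2%, 19.0% and 4.51%. By far the highest level was that of the 89 Gip-high cells (500 or more Gip UMIs per 10000 and none of the 4 criteria met), at 58.1 (56.2 to 60.0), with a UMI in 100% of them and a median of 60.2 and a range of 1.75 to 149.8 per cell. Within the Cck-high cells, the 72 with 50 or more Gip UMIs per 10000 were at 19.4 and the other 781 at 2.50. Within the enterocyte-marker cells, 17 such Gip cells held 891 Fabp5 UMIs and stood at 79.2, and the other 472 held 81 UMIs and stood at 0.178. Both splits were chosen after the values had been seen. The 40 Sst-high cells, which make somatostatin, were at 8.33.

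Tph1-high cells held 6.44 UMIs of Apoc3 per 10000 (6.26 to 6.64), close to the 6.74 of enterocyte-marker cells, and 15.1 of Apoa1, whereas Mttp was at 0.266 and Apoa4 at 1.77. Apoc3 was in 53.5% of Tph1-high cells after thinning (58 of the 2015 were too shallow), against 10.3% of Cck-high and 60.3% of enterocyte-marker cells. The number of Apoc3 UMIs per Mttp UMI was 24.2 in Tph1-high cells, 0.631 in enterocyte-marker cells, 1.93 in free RNA and 1.62 in Cck-high cells, and that of Apoa1 per Apoa4 was 8.55 in Tph1-high cells. In the 40 Sst-high cells Apoc3 per Mttp was 19.0, on 1 Mttp UMI, Apoa1 per Apoa4 was 2.75, and Apob was at 2.13 UMIs per 10000 (1.55 to 2.85) against 1.79 in Tph1-high cells. Afp, the alpha-fetoprotein gene, divided the Tph1-high cells: the 804 with 5 or more Afp UMIs per 10000 were at 11.4 for Apoc3, 21.3 for Apoa1 and 0.347 for Cd36, and the other 1211 at 3.10, 11.0 and 0.0344. Tph1-high cells with 1000 or more Sct (secretin) UMIs per 10000, 323 in all, were at 1.58 for Apoc3 and the other 1692 at 7.49. Afp and Sct limits were also chosen after the values had been seen.

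Refeeding gave few calls among the 10 genes. In CCK+ libraries, Cd36 was lower in refed than in fasted mice (-1.16 ± 0.27, log2, SE, adjusted p = 0.0349), with means of 264 ± 121 and 568 ± 151 normalized counts (SD, n = 3 each). The 2 groups did not overlap, but the share of all genes without overlap on refeeding is not given here. The other 9 did not pass the test. Of all genes, 1.23% were called lower and 1.31% higher on refeeding. Apoa1 had the next largest estimate (-1.03 ± 0.32, adjusted p = 0.114), at 94013 ± 26857 in fasted and 45702 ± 12102 in refed CCK+ libraries, and its 95% interval ran from -1.73 to -0.34. The Cd36 call was lost when any 1 of 10 of the 12 libraries was left out, with changes between -1.18 and -0.95 and adjusted p between 0.0621 and 0.211.

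Enterocyte markers moved with it. In CCK+ libraries 5 of the 15 markers were called lower on refeeding (Lct, Treh, Mgam, Slc6a19 and Dpep1) and none higher, with a median of -0.89 (log2) over the list, against 0.01 over all genes and -0.45 over the 10 genes. When each library's values were taken relative to its own enterocyte median, an alternative chosen after the data had been seen, Cd36 was at -0.20 (adjusted p = 0.480). On that scale 4 other genes were called higher in refed CCK+ libraries, namely Fabp1 (1.28, adjusted p = 0.00132), Fabp5 (1.50, adjusted p = 0.0270), Fabp2 (0.73, adjusted p = 0.0253) and Mttp (0.66, adjusted p = 0.0280), the last 2 of which had estimates of the other sign on the deposited scale (-0.22 and -0.30). The scale subtracts 1 value per library, so it adds the same amount to the log2 change of every gene. The enterocyte median was lower in refed CCK+ libraries (11.5 to 12.6, log2) than in fasted ones (12.7 to 13.3), so every estimate moved upward. The calls and changes of sign on it are thus not particular to these genes. It called 7475 of all 22042 genes in CCK+ libraries, in either direction, so calls were common on it.

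In CCK- libraries, the mixed epithelium, none of the 10 genes was called on refeeding (limma, 3 at an unadjusted p under 0.05), where 1.23% of all genes were. The largest estimates were those of Fabp5 (1.31 ± 0.39, adjusted p = 0.139), at 2.98 ± 0.53 and 9.72 ± 5.79 normalized counts in fasted and refed mice (SD, n = 3 each), and Cd36 (-0.70 ± 0.27, adjusted p = 0.282). Fabp1 was at 22193 ± 1704 in fasted and 31099 ± 2900 in refed CCK- libraries, and its change of 0.49 ± 0.22 had an adjusted p of 0.406. For none of the 10 genes was a difference of the feeding effect between CCK+ and CCK- cells called (limma, adjusted p between 0.805 and 0.922, none at an unadjusted p under 0.05), and 0.00454% of all genes, 1 gene, were called there. All 10 estimates were negative, from -0.76 to -0.16 with a median of -0.40 (log2). The median was 0.01 for all genes and -0.57 for the enterocyte markers. Intervals were wide at 3 mice a group, such as -1.94 to 0.42 for Fabp5.

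**Figure D5:**
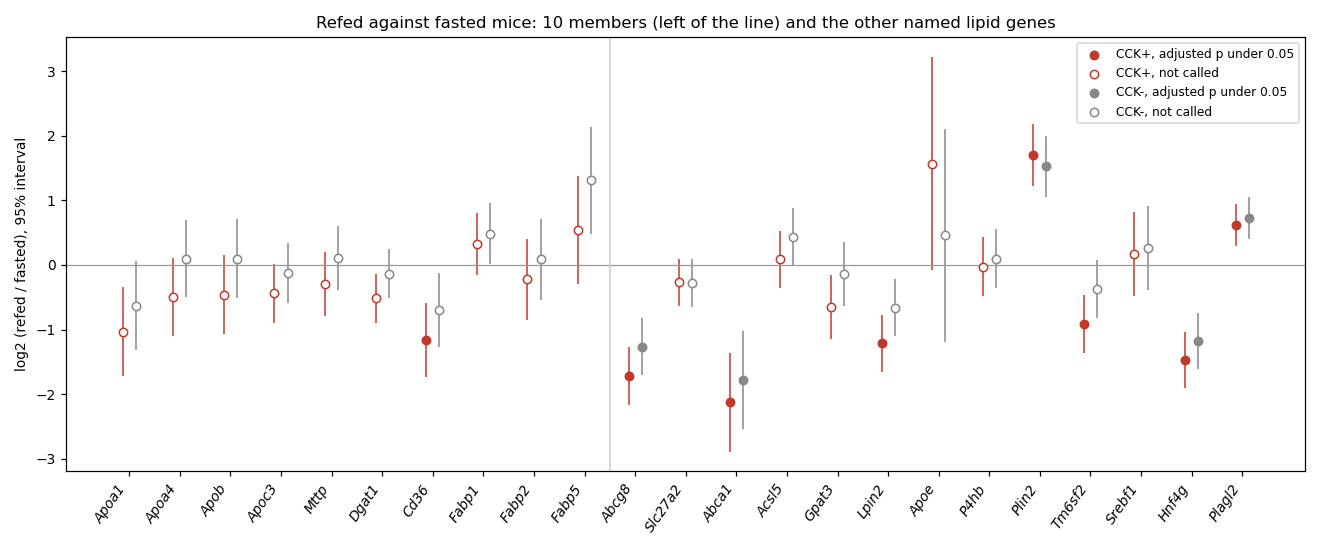
Log2 change from fasted to refed mice with its 95% interval for the 10 genes (left of the line) and other named genes of lipid handling (right), in CCK+ (red) and CCK- (grey) libraries, with filled points at adjusted p under 0.05. Cd36 in CCK+ is the only filled point among the 10 genes, at -1.16, and Abcg8, Abca1, Hnf4g, Plin2 and Plagl2 are filled in both classes.

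Calls were also made among 40 other genes of the pathway, in CCK+ libraries beside the median fall of the enterocyte markers by 0.89 (log2) given above. Of all genes, 1.23% were called lower and 1.31% higher in CCK+, and 1.23% in either direction in CCK-. The part of enterocyte RNA in the falls in CCK+ was not tested for single genes of these lists. Of 9 genes of lipid uptake and sterol transport, 3 fell on refeeding in CCK+ and 2 in CCK- libraries. Abca1, the cholesterol efflux pump, fell by 2.13 ± 0.36 in CCK+ (log2, SE, adjusted p = 0.00739) and by 1.78 ± 0.36 in CCK- (adjusted p = 0.0276). Abcg8, part of the pump that returns sterols to the lumen, fell by 1.72 ± 0.21 (adjusted p = 0.00265) and by 1.27 ± 0.21 (adjusted p = 0.00834), and its partner Abcg5 fell in CCK+ (-1.16 ± 0.18, adjusted p = 0.00529). Plin2, a coat protein of lipid droplets, rose in both classes, from 159.8 ± 49.2 to 507 ± 22.0 normalized counts in CCK+ and from 311 ± 61.5 to 902 ± 202 in CCK- libraries (SD, n = 3 each; adjusted p = 0.00294 and 0.00385). It was the only gene of 11 of chylomicron assembly and lipid droplets that was called higher, and in CCK+ Tm6sf2 fell (-0.92 ± 0.21, adjusted p = 0.0347), by about the enterocyte median. Tm6sf2, Abcg5 and Lpin2 were not called in CCK-, but the difference between the classes was not called for any of them.

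Among 9 regulators, Hnf4g fell on refeeding in CCK+ (-1.47 ± 0.21, adjusted p = 0.00375) and CCK- (-1.18 ± 0.21, adjusted p = 0.0135), and Plagl2, a zinc finger factor of the absorptive program, rose in both (0.62 ± 0.15, adjusted p = 0.0436, and 0.73 ± 0.15, adjusted p = 0.0321). Of 11 genes of fatty acid activation and triglyceride synthesis, only Lpin2, a phosphatidate phosphatase, was called, in CCK+ (-1.22 ± 0.21, adjusted p = 0.00848). Acsl3 was not called in either class. Its fasted and refed values did not overlap, but the share of all genes without overlap on refeeding is not given here. The Acsl3 means were 113 ± 32.0 and 249 ± 70.6 normalized counts in fasted and refed CCK+ libraries, and 94.4 ± 46.0 and 251 ± 74.4 in CCK- libraries (SD, n = 3 each). For none of these 40 genes was the difference of the feeding effect between the classes called.

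Between the classes, the other lists resembled the 10 genes in direction. Of the 9 genes of uptake and sterol transport 6 were lower and 1 higher in CCK+, of the 11 of triglyceride synthesis 8 and 1, of the 11 of assembly and droplets 7 and 1, and of the 9 regulators 4 and 1. Of all genes, 14.1% were called lower and 19.6% higher. The median changes of the 4 lists were -0.68, -0.79, -0.72 and -0.14 (log2), against -1.05 for the 15 enterocyte markers and 0.09 for all genes. The lower ones included Acsl5, which activates fatty acids (-1.20 ± 0.15, adjusted p = 1.83e-05), Gpat3 (-1.11 ± 0.16, adjusted p = 0.000101), the fatty acid transporter gene Slc27a2 (-0.92 ± 0.12, adjusted p = 3.92e-05), Abcg8 (-1.05 ± 0.15, adjusted p = 6.21e-05), P4hb, the partner subunit of the Mttp protein (-1.08 ± 0.15, adjusted p = 5.48e-05), and Hnf4g (-1.20 ± 0.15, adjusted p = 1.80e-05). Higher in CCK+ were Apoe (2.68 ± 0.55, adjusted p = 0.00145), which macrophages also make and which spread from 8.19 to 166 normalized counts over the CCK+ libraries, and Srebf1 (1.25 ± 0.21, adjusted p = 0.000358), a factor of lipid synthesis.

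By likeness of pattern over the 12 libraries, among 7498 genes with a mean of at least 100 normalized counts, the genes close to Apob included Cdhr2 (Pearson r = 0.95) and Clca4b (r = 0.94), and those closest to Fabp5 were Fxyd3, Gsdma and Elapor1 (r = 1.00, 1.00 and 0.99). These correlations describe 12 libraries in 2 sorted classes, which alone fix much of them. Against the median of the enterocyte markers over the 6 CCK+ libraries, Cd36 had r = 0.97, Apoc3 0.94, Apoa1 0.93 and Fabp1 0.09, and the points share libraries and their scaling.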

How the data were processed

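The authors counted droplet reads with Cell Ranger 2.0.1 (mm10) and deposited UMI counts per gene and barcode. For the sorted libraries they trimmed reads with Trim Galore 0.6.7, quantified them with Salmon 1.6.0 (GRCm39) and deposited a signal, DESeq2-normalized counts that are not whole reads. Totals were 7061160 to 11371100 normalized counts per library, and the read depth behind them is unknown.

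Samples were grouped by their labels for cell type and treatment. limma 3.58.1 (R 4.3.3) was fitted to log2(normalized count + 1) of all 22042 genes, with 1 mean per group, a mean-variance trend and Benjamini-Hochberg adjustment over all genes. Each mouse's log2 ratio of CCK+ to CCK-, minus its median over 15 enterocyte markers, was fitted likewise. The fits were tested on simulated data. The 2 libraries of a mouse came from the same animal, and their deviations from the group means had r between 0.0773 and 0.124 (-0.0826 to -0.0184 between mice). The mouse was a replicate block only in an alternative.

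Droplet values are UMIs per 10000 of each group with exact Poisson intervals and shares of cells with exact binomial intervals, at 95%, covering counting error only. The filter left more cells than the study's text gives. The 10 genes and all lists were chosen with earlier results of these data known. Named were the 10 genes, up to 2 called genes with the largest change of each other lipid list in each of the first 3 comparisons, Cck, 4 enterocyte markers, and the 3 genes most like Apob and Fabp5, of which 1 is not reported here. Gip, Afp, Sct, Abcg5, Acsl3, Cdh5 and the other single markers were named after their values had been seen. Alternatives covered the pseudocount, a filter on low values, scaling, the trend, the block, each library left out, the markers, the cell limits and depth. Promoters came from RefSeq (GRCm38.p6) and gene positions from GENCODE (GRCm38).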

Additional observations from a re-analysis of the deposited data

How the results depend on the processing

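The limits below are those of 3 mice a group, of enterocyte and immune RNA in the CCK+ libraries, and of a droplet library with no replicate. Over 21 alternatives each, the calls of Mttp, Dgat1, Cd36, Fabp1, Fabp2 and Fabp5 between CCK+ and CCK- were kept, and that of Apob was lost in 3 of them. Rescaling to equal totals moved the median of all genes by 0.39 (log2) between the classes and quantile normalization by -0.18, and the share of higher calls went from 58.2% to 84.1% and 41.6%. With the mouse as a replicate block, paired libraries gave 9 called members against 7, among 7671 called genes against 7431. For refeeding in CCK+, rescaling moved the share of higher calls from 51.5% to 77.4%. With a library left out, 6520 to 7618 genes and 7 to 8 members were called between the classes. In the fasted mice alone, 4012 genes were called between the classes against 7431.

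Refed against fasted in CCK+ called 561 genes, but 850 after quantile normalization (2 members) and 119 without the trend (0 members), and 103 to 876 with a library left out (0 to 1 members). In CCK- it called 272 genes, 165 after quantile normalization, 66 without the trend and 79 to 268 with a library left out. The difference of the feeding effect called 1 gene, 0 with a pseudocount of 10, 2 after quantile normalization, 2 without the trend and 1 to 6 with a library left out. Relative to the library's enterocyte median, 7475 genes in CCK+ (4 members) and 90 in CCK- were called, and Mttp (0.66) and Fabp2 (0.73) changed sign in CCK+. That scale moves the log2 change of every gene by the same amount, upward in CCK+.

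Relative to the enterocyte markers, 15162 genes were called (5 to 6 members and 12694 to 15774 genes with a mouse left out), and with the 10 markers low in Cck-high cells 16412 genes and 7 members, and with Alpi, Reg1 and Rbp2 alone 14544 genes and 7 members. The Cd36 call on refeeding was lost in 12 of its 19 alternatives.

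The number of Cck-high cells was 947 with over 500 genes, 678 with over 1500 genes, 1246 with overlap allowed, 634 with limits halved and 913 with limits doubled, against 853. Their summed level of the 10 genes was 18.1 UMIs per 10000, and 20.7 with overlap allowed, 17.0 with limits doubled and 18.5 after thinning. Apoc3 was higher in Tph1-high than in enterocyte-marker cells with limits halved or over 500 genes, and Fabp5 was highest in enterocyte-marker cells with limits halved.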
